A study of Mus musculus with 4 samples.

Results

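The genes described here are 30 genes that mark endothelial cells, the cells that line blood and lymph vessels. They were taken by name, as every probe set of the array whose annotation gives one of these 30 symbols and no other: 49 probe sets of 45037, with at least 1 for each gene, and 22 of the 49 were bright enough to be tested. A probe set is the group of short probes that reads 1 transcript, and each gene is given by its probe set of highest mean over the 4 arrays. The RNA came from whole testes of 129 strain mice taken 2 days post partum (dpp) and kept 24 h in organ culture, in serum-containing medium, with WIN 18,446 at 1 µM or with the vehicle, dimethyl sulfoxide. WIN 18,446 inhibits the retinaldehyde dehydrogenases that make retinoic acid, and the vehicle is the only control. There were 4 samples, 2 per group, each on an Affymetrix Mouse Genome 430 2.0 microarray. The labels do not say whether samples of a group were separate animals or cultures, and the spread behind each p-value is that between these samples and may be technical. The value of each array is a log2 level, so a difference of 1 is a 2-fold difference. Array medians lay between 3.72 and 3.83, and with so few arrays the precision is low. RNA quality, judged by how far the 3' probe set of Gapdh read above the 5' one, was 0.83 and 0.76 with vehicle and 0.83 and 0.72 with WIN 18,446. On 18S ribosomal RNA, as read at its 5' end, treated array 1 stood apart, at 6.55 against 8.12 to 8.67 on the others, and the part of this in the results was not tested.

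Endothelial cells are guided by VEGF ligands, read by the receptors Kdr, Flt1 and Flt4, and by angiopoietins, read by Tek, which pairs with the orphan receptor Tie1. ETS and SoxF transcription factors, such as Erg, Fli1 and Sox17, hold the cells in their identity. Junction proteins such as Cdh5 and Pecam1 seal neighbouring cells together. In the fetal testis, endothelial cells migrate in from the mesonephros and form the vessels between the cords. Some of these genes are not confined to endothelium: Cd34 and Eng are also made by stromal cells, Lyve1 also by macrophages, and Tal1, Fli1 and Icam2 also by blood cells.

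Most of the endothelial genes read lower with WIN 18,446, and 1 passed the test. Of the 30 genes, 18 had a mean level of at least 5 over the 4 arrays and were tested, and 12 did not. Robo4 fell, none rose and 17 were not called at an adjusted p under 0.05 (limma, adjusted over 20895 probe sets). Of all probe sets tested, 5.18% were called in either direction. The 1 of 18 is to be read against the 3.46% of all 10970 tested genes that were called lower and the 2.94% called higher. The group mean was lower with WIN 18,446 for 16 of the 18 (15 after quantile normalization again), against 54.8% of all genes. Both treated arrays lay below both vehicle arrays for 14 of the 18, against 31.8% of all genes, and both lay above for 0, against 24.8%. The unadjusted p was under 0.05 in the lower direction for 11 of the 18, against 14.1% of all genes. The median log2 difference was -0.81 over the 18 and -0.02 over all genes tested, and 7 of the 18 were over 1 log2 unit lower, against 2.99% of all genes. These genes were read on the same 4 arrays, so they are not independent of one another. The list was chosen with earlier results of these data known, so the shares describe it and do not test it. In RNA from whole testes, fewer endothelial cells and less of each transcript per cell cannot be told apart.

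**Figure D1:**
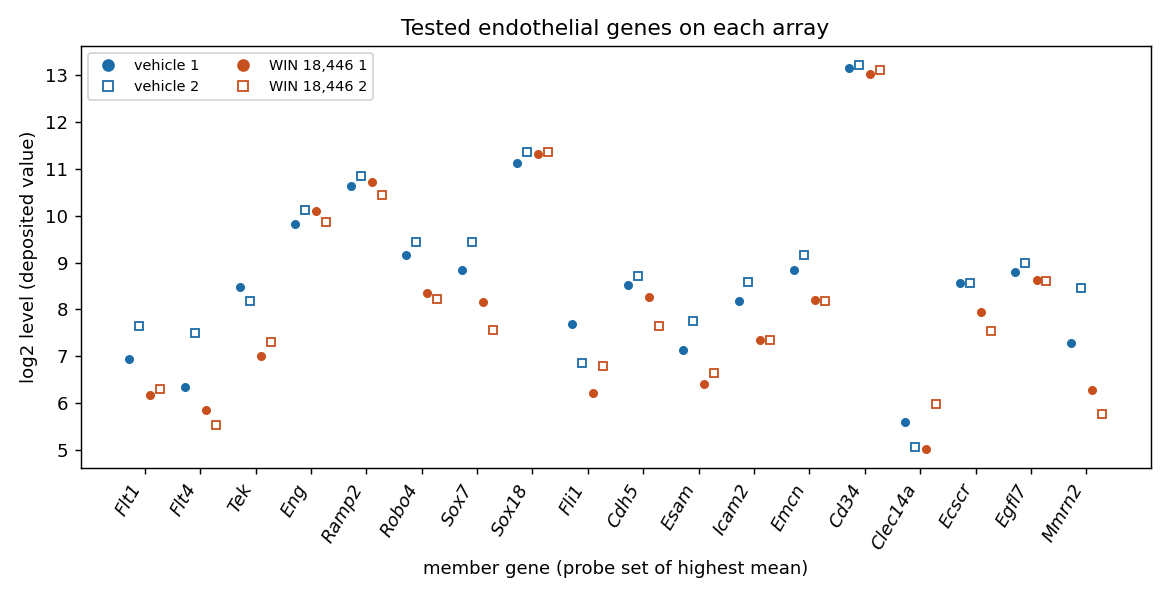
Log2 levels of the 18 tested endothelial genes (vertical axis) on each of the 4 arrays, blue for vehicle and orange for WIN 18,446, filled circles for array 1 and open squares for array 2 of a group. Both orange points lie under both blue points for 14 of the 18 genes, and Eng, Ramp2, Sox18 and Clec14a overlap.

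The receptors of angiopoietin showed some of the wider gaps between groups. Tek, the angiopoietin receptor, read 8.48 and 8.18 with vehicle and 7.01 and 7.30 with treatment. The groups were apart by 0.88, more than either pair of arrays differed within its group. Its log2 difference was -1.17 (SE 0.22, 95% interval -1.73 to -0.62), and its adjusted p of 0.0509 in limma just missed the threshold. The adjusted p in limma passed with quantile normalization again (0.0452), equal array medians (0.0435), robust moderation (0.0491), a filter at a mean of 7 (0.0409), a filter at 5 on 2 or more arrays (0.0486) and probe sets averaged by gene (0.0231). It did not pass with no level filter (0.196), with no variance trend (0.0697), with the replicate number as a block (0.0537) or with any 1 array left out (0.0508 to 0.358). Tie1, the partner of Tek, read 5.16 and 4.97 with vehicle and 2.43 and 2.32 with WIN 18,446. Its treated values lay close to background, taken as 2.22, the highest value read by probe sets for bacterial genes. The log2 difference of Tie1 was -2.69, with a mean under the level filter; in the limma fit with no filter its adjusted p was 0.069.

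The stretches before the starts of these receptors are shown because ETS factors, 2 of which are on the list, act through promoters of endothelial genes. The RefSeq promoter table (GRCm38.p6) matched 13 of the 30 genes: Kdr, Flt1, Flt4, Tek, Tie1, Eng, Robo4, Erg, Tal1, Emcn, Cd34, Clec14a and Egfl7. The 250 bases before the start are given for Robo4, the gene that was called, for Tek and Tie1, and for Eng, whose groups overlapped. Capitals mark AGGAAG or CGGAAG, which extend the ETS core GGAA, searched on both strands (CTTCCT and CTTCCG when read on the other strand). GGAA or TTCC with other flanking bases was left in small letters and not counted, and stands in the Tek window as well.
Robo4, chr9:37401722-37401971, plus strand: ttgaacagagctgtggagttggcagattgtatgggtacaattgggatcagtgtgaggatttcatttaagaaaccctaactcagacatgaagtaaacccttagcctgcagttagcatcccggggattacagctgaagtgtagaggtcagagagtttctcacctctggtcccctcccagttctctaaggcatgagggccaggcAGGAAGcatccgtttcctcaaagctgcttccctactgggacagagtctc
Tek, chr4:94739039-94739288, plus strand: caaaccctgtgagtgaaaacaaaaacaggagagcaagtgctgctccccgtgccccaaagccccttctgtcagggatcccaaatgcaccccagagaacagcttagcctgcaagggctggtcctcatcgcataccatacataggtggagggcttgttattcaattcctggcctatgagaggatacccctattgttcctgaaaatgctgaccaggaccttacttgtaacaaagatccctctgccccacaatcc
Tie1, chr4:118489850-118490099, minus strand: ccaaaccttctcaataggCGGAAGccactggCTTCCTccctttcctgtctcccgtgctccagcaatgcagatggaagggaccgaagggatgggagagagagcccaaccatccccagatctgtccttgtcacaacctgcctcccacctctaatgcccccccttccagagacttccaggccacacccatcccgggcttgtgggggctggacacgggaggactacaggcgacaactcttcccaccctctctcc
Eng, chr2:32646345-32646594, plus strand: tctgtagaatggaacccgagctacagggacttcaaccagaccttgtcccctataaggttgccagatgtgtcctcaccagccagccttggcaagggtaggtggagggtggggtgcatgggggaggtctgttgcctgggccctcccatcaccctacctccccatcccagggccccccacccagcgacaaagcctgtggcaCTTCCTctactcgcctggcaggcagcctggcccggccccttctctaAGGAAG
The marked letters stood 1 time in the Robo4 window, starting 49 bases before the gene's start. They stood 2 times in that of Tie1, 2 times in that of Eng and 0 times in that of Tek. Over all 32851 windows of this length in the table, 39.2% held them, against 9 of the 18 windows of the endothelial genes, some of which have several starts. A match is a description of the letters and not of a bound site.

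Of the 3 VEGF receptors, 2 were tested and neither was called by limma. Both were lower at an unadjusted p under 0.05 (limma), against 14.1% of all genes. Flt1, which binds VEGF and limits how much reaches Kdr, read 6.95 and 7.65 with vehicle against 6.18 and 6.30 with WIN 18,446. The groups did not overlap, and the log2 difference was -1.06 (SE 0.30, adjusted p = 0.12, limma). Flt4, the receptor of VEGF-C in lymphatic and sprouting vessels, read 6.36 and 7.51 with vehicle and 5.86 and 5.54 with the inhibitor. Here the vehicle arrays differed by 1.15, nearly as much as the groups did (-1.23, SE 0.42, adjusted p = 0.181, limma), and without vehicle array 2 the difference was -0.66. Kdr, the main signalling receptor of VEGF, was above background only on vehicle array 2, at 2.93, against 2.12 on vehicle array 1 and 2.09 and 2.13 on the treated arrays. The other 3 probe sets of Flt1 and the second of Flt4 had means under 5 and were not tested.

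Robo4 was the 1 receptor on the list that passed the test, though its difference was smaller than those of Tek, Flt1 and Flt4. Robo4, a roundabout family receptor that steadies vessels, read 9.16 and 9.43 with vehicle and 8.35 and 8.23 with WIN 18,446. It fell by 1.01 on the log2 scale (SE 0.18, 95% interval -1.46 to -0.56, adjusted p = 0.0435, limma), which is 2.02-fold. The groups were 0.82 apart at their nearest, while arrays of 1 group differed by 0.27 and -0.12. Its call was lost when any 1 array was left out: the difference then ranged from -1.15 to -0.87 and the adjusted p in limma was 0.31 without vehicle array 1, 0.273 without vehicle array 2, 0.0732 without treated array 1 and 0.0683 without treated array 2. It was lost as well with no variance trend (0.0616) and with no level filter (0.14).

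Eng, the co-receptor for BMP9 and TGF-beta signals in endothelium, read 9.83 and 10.13 with vehicle and 10.09 and 9.86 with WIN 18,446. The groups overlapped, and the 95% interval of the difference ran from -0.42 to 0.42. A second probe set of Eng differed by -0.30 (adjusted p = 0.454, limma). Ramp2, which pairs with Calcrl to form the adrenomedullin receptor, read 10.64 and 10.84 with vehicle and 10.71 and 10.43 with treatment, again overlapping (-0.17, 95% interval -0.54 to 0.21). Aplnr, the apelin receptor, went the other way in its mean, from 3.21 and 4.28 to 5.48 and 3.98, but the groups overlapped and it lay under the level filter. Lyve1, the hyaluronan receptor of lymphatic vessels, was at background on all 4 arrays, between 2.18 and 2.19.

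Among the transcription factors, the SoxF genes did not read alike. Sox7 read 8.84 and 9.43 with vehicle and 8.16 and 7.56 with WIN 18,446, with no overlap and a log2 difference of -1.27 (SE 0.31, adjusted p = 0.0886, limma). Sox18, mutated in a human syndrome of lymphatic vessels, read 11.11 and 11.36 with vehicle and 11.31 and 11.35 with treatment. That difference was 0.09, with a 95% interval of -0.21 to 0.39, and its groups overlapped. Sox17, a factor of arterial endothelium, read 3.43 and 3.91 with vehicle and 3.35 and 3.24 with WIN 18,446, under the level filter. Whether Sox7 and Sox18 differ from each other in response was not tested. Fli1, an ETS factor of endothelial and blood cells, read 7.69 and 6.87 against 6.22 and 6.80, so that vehicle array 2 and treated array 2 were 0.07 apart (log2 difference -0.77, SE 0.37, adjusted p = 0.306, limma). With 1 array left out the difference of Fli1 ranged from -1.18 without vehicle array 2 to -0.36 without vehicle array 1. Erg, its close relative, was above background only on vehicle array 2 (2.53), as Kdr was. Tal1, a factor of blood and vessel precursors, was at background on all 4 arrays.

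Of the 9 junction and surface proteins, 7 were tested and none was called by limma. Lower at an unadjusted p under 0.05 were 5 of the 7 (limma), against 14.1% of all genes. Both treated arrays lay below both vehicle arrays for 7 of the 9, against 31.8% of all genes tested. Pecam1, counted here as below, lay under the level filter that the tested genes passed. Icam2, an adhesion molecule of endothelial junctions, read 8.18 and 8.59 with vehicle and 7.34 on both treated arrays. Its groups were 0.84 apart, and the log2 difference was -1.04 (SE 0.21, adjusted p = 0.0628, limma). Emcn, the sialomucin endomucin, read 8.83 and 9.15 with vehicle and 8.21 and 8.19 with WIN 18,446 (-0.80, SE 0.18, adjusted p = 0.0809, limma). Ecscr, a small surface protein that regulates endothelial migration, read 8.56 and 8.57 with vehicle and 7.95 and 7.53 with treatment (-0.82, SE 0.21, adjusted p = 0.0999, limma). At their nearest, the groups of Emcn were 0.63 apart and those of Ecscr 0.61. Esam, a tight junction adhesion molecule, read 7.14 and 7.75 against 6.41 and 6.64, and differed by -0.92 (adjusted p = 0.143, limma). Cdh5, the VE-cadherin that defines endothelial junctions, read 8.51 and 8.71 with vehicle and 8.26 and 7.65 with WIN 18,446, so that 1 treated array was near the vehicle level (-0.66, SE 0.26, adjusted p = 0.224, limma). Without treated array 2 it differed by -0.35.

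Cd34, a sialomucin of endothelial, stromal and stem cells, read 13.14 and 13.21 with vehicle and 13.02 and 13.10 with treatment. Its difference of -0.11 had a 95% interval of -0.28 to 0.06. Clec14a, a lectin-like receptor of sprouting vessels that binds Mmrn2, read 5.59 and 5.07 against 5.02 and 5.98, and the groups overlapped (0.17, 95% interval -0.85 to 1.20). Pecam1, the adhesion molecule known as CD31, read 4.35 and 5.68 with vehicle and 4.07 on both treated arrays, under the level filter. Vehicle array 2 was the high reading, and vehicle array 1 lay 0.28 above the nearest treated array. Plvap, the diaphragm protein of fenestrated vessels, was at background throughout (2.15 to 2.21).

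Of the 5 secreted, anchored and enzyme genes, 2 were tested and neither was called by limma. Lower at an unadjusted p under 0.05 was 1 of the 2 (limma), against 14.1% of all genes. Mmrn2, a matrix glycoprotein laid down by endothelial cells, read 7.29 and 8.46 with vehicle and 6.29 and 5.78 with WIN 18,446. The log2 difference was -1.83 (SE 0.44, adjusted p = 0.088, limma), and a second tested probe set gave -2.21 (adjusted p = 0.0899, limma). That second probe set read 6.04 and 7.42 with vehicle and 4.13 and 4.91 with WIN 18,446. It thus reached the mean of 5 through its vehicle arrays alone, which limits what it adds. Both tested probe sets put the treated arrays below the vehicle arrays, and both put vehicle array 2 above vehicle array 1. Egfl7, a secreted factor that guides vessel tubes, read 8.81 and 8.998 against 8.62 and 8.60 (-0.29, adjusted p = 0.374, limma). Its other tested probe sets gave -0.08 and -0.44.

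Gpihbp1, which anchors lipoprotein lipase on capillary walls, read 5.87 and 6.66 with vehicle and 2.29 and 2.09 with WIN 18,446. The nearest arrays of the groups were 3.59 apart, with treated array 2 at background. Its mean lay under the level filter. When limma was run on probe sets reaching 5 on 2 or more arrays, a filter which Gpihbp1 passed through its vehicle arrays alone, the adjusted p was 0.0107, and with no filter it was 0.0799. Vwf, the clotting factor stored in endothelial granules and platelets, read 4.73 and 4.24 with vehicle and was at background on both treated arrays (2.14 and 2.15), at least 4.82-fold lower; its adjusted p with no filter was 0.0785 (limma). Nos3, the endothelial nitric oxide synthase, read 3.26 and 4.98 with vehicle and 2.77 and 2.79 with treatment. As with Pecam1, vehicle array 2 was the high reading.

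**Figure D2:**
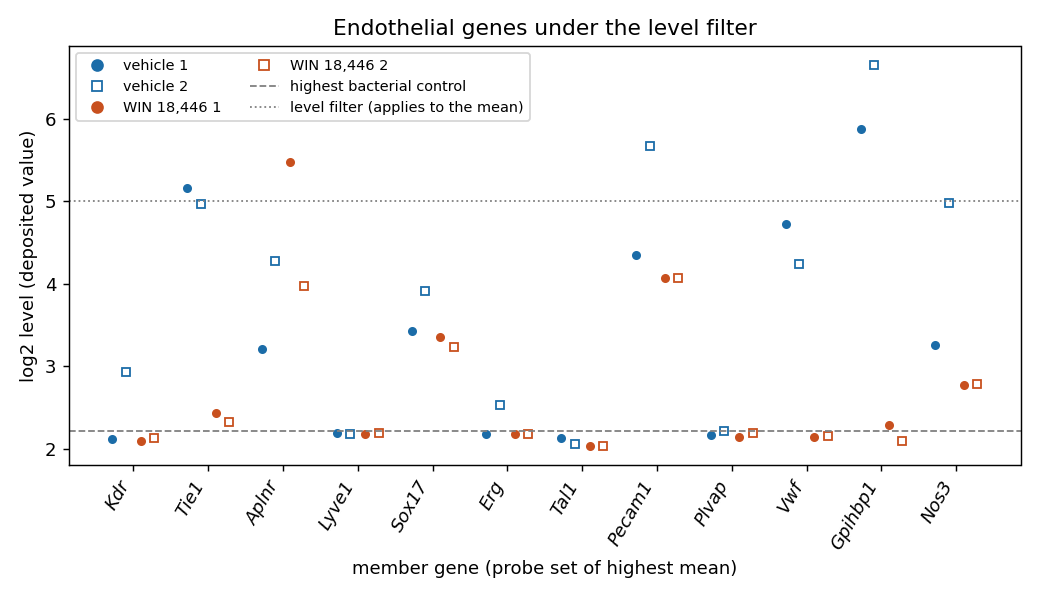
Log2 levels of the 12 endothelial genes whose mean lay under the level filter of 5 (dotted line), by array, with the background reading of 2.22 as a dashed line. Tie1, Gpihbp1 and Vwf lie near the dashed line on the treated arrays and between 4.24 and 6.66 on the vehicle arrays, while Lyve1, Tal1 and Plvap lie at it on all 4 arrays.

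The vehicle arrays also differed from each other in these genes. Vehicle array 2 read higher than vehicle array 1 for 15 of the 18 tested genes, against 43.1% of all genes tested. The median gap, vehicle array 2 minus vehicle array 1, was 0.26 over the 18 and -0.02 over all genes. Flt4 (1.15) and Mmrn2 (1.17) had the widest such gaps among tested genes, while Tek (-0.30), Fli1 (-0.83) and Clec14a (-0.53) were higher on vehicle array 1. Among genes under the filter, Nos3 differed by 1.72 and Pecam1 by 1.33 between the vehicle arrays. The treated arrays did not share such a tilt, with a median gap of -0.02 and 7 of the 18 higher on treated array 2. In size, the group difference was larger than the gap within either group for 13 of the 18, against 43.2% of all genes.

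Each treated array was set against each vehicle array to see how much rests on 1 of them. The median over the 18 genes was -0.62 and -0.74 for the treated arrays against vehicle array 1, with 15 of 18 lower in both cases. Against vehicle array 2 it was -0.79 and -0.9995, with 18 and 17 of 18 lower. Medians over all genes lay between -0.04 and -0.0027 in these pairs. The lower readings were thus present against the vehicle array with the lower endothelial readings too.

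**Figure D3:**
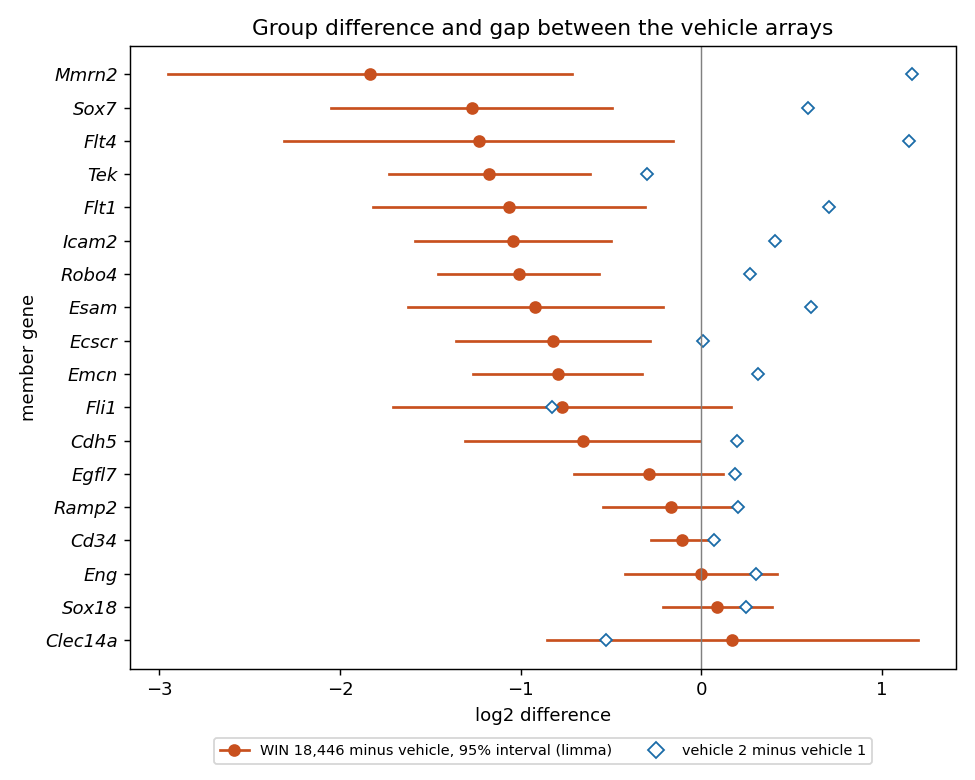
Log2 difference, WIN 18,446 minus vehicle, of the 18 tested endothelial genes with limma's 95% interval (orange), and vehicle array 2 minus vehicle array 1 (blue diamonds). Differences run from -1.83 for Mmrn2 to 0.17 for Clec14a, and most diamonds lie to the right of 0.

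**Figure D4:**
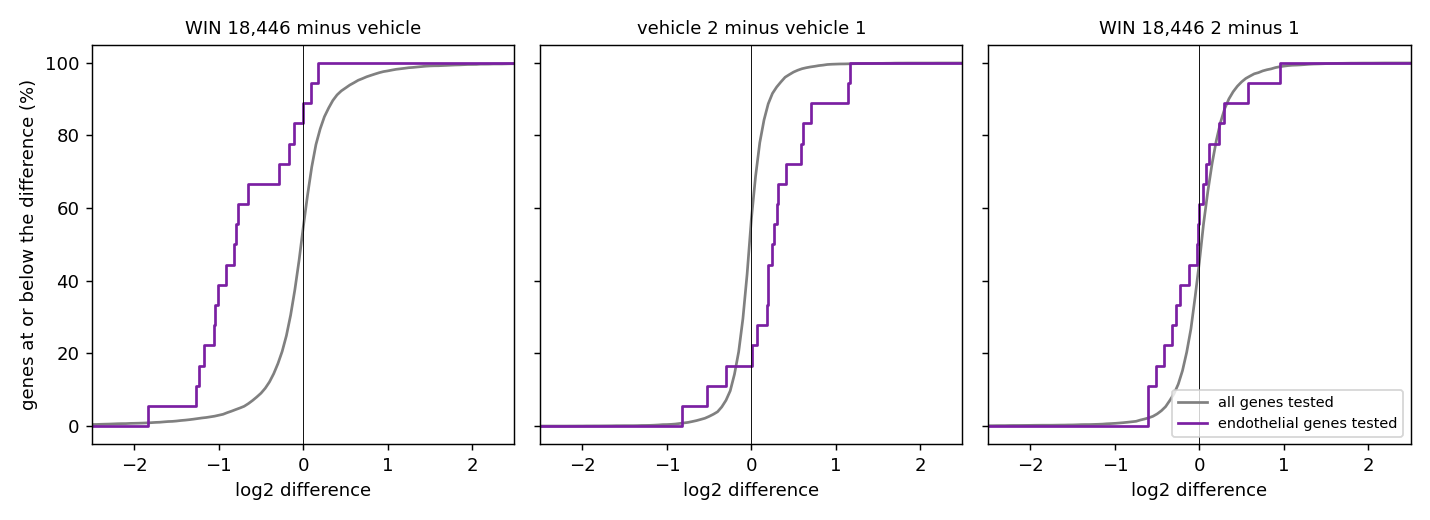
Percent of genes at or below each log2 difference, for the 18 tested endothelial genes (purple steps) and all 10970 genes tested (grey), in 3 comparisons. The purple line lies left of the grey one for WIN 18,446 minus vehicle (medians -0.81 and -0.02) and right of it for vehicle array 2 minus vehicle array 1 (0.26 and -0.02).

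Other genes of the vessel pathways were read from a list of 76 ligands, co-receptors, Notch genes and further endothelial genes. Of the 56 tested, 6 fell, 1 rose and 49 were not called, against 3.46% of all genes called lower and 2.94% called higher. Without either vehicle array limma called no probe set of the array (2455 and 2820 at an unadjusted p under 0.05). The median difference over the 76, of which 20 lay under the level filter, was -0.07, against -0.02 over all genes tested. The treated arrays lay below the vehicle arrays for 27 of the 76 (35.5%, against 31.8% of all genes tested) and above for 13, against 24.8%. The group mean was lower for 71.1% of the 76, against 54.8%, and 10.5% were over 1 log2 unit lower, against 2.99%. Of the ligands, Slit2, known best as a ligand of Robo1 and Robo2, fell by 0.64 (SE 0.08, adjusted p = 0.0254, limma). Vegfa, the ligand of Kdr and Flt1, read 10.16 and 10.77 with vehicle and 11.26 and 11.19 with WIN 18,446, above both vehicle arrays (0.76, adjusted p = 0.124, limma). Angpt2, a modulator of Tek, overlapped between groups (0.59, adjusted p = 0.666, limma). Vegfc, the ligand of Flt4, read 5.21 and 4.49 against 4.69 and 3.80, and Angpt1, which activates Tek, was near background apart from treated array 1 (3.11). Apln, the ligand of Aplnr, was near background on all 4 arrays.

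Among co-receptors, Nrp2, which binds VEGF-C with Flt4, fell by 1.86 (SE 0.34, adjusted p = 0.0491, limma). Nrp1 differed by -0.01 (95% interval -0.25 to 0.23). Acvrl1, the BMP9 receptor that works with Eng, rose by 0.94 (SE 0.11, adjusted p = 0.0222, limma). Differences over the 16 co-receptors and signal partners ran from -1.86 to 1.69, with a median of -0.09. Both treated arrays lay above both vehicle arrays for 5 of the 16, against 24.8% of all genes, and below for 6, against 31.8%. In the Notch group, Notch4, the Notch receptor found mainly in endothelium, fell by 1.22 (SE 0.22, adjusted p = 0.049, limma). Of the 34 further endothelial genes, 24 were tested and 3 fell, against 3.46% of all genes called lower. The median difference over the 34 was -0.11. Both treated arrays lay below both vehicle arrays for 14 of them, against 31.8% of all genes, and above for 3, against 24.8%. Of the 34, 18 differed by under 0.2 in size, as did 6243 of all 10970 genes tested. Epas1, the hypoxia-inducible factor HIF-2alpha, fell from 13.17 and 13.18 to 11.78 and 11.61 (-1.48, SE 0.09, adjusted p = 0.00612, limma). Mfsd2a, a lipid transporter of brain capillaries that is also made elsewhere, fell by 0.67 and Exoc3l2 by 0.40 (adjusted p = 0.0315 and 0.0262, limma). Epas1 and Exoc3l2 were bright, with vehicle means of 13.18 and 13.92, beside 9.30 for Robo4 and 13.17 for Cd34. Which cells of the testis gave these readings was not tested. Cldn5, the claudin of endothelial tight junctions, read 8.20 and 9.67 with vehicle and 7.85 and 7.35 with treatment (-1.33, adjusted p = 0.217, limma), with a gap of 1.47 between the vehicle arrays.

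Markers of other cells were read beside the endothelial genes, and their part in the result was not tested. The log2 of the summed level of the 30 endothelial genes was 14.14 and 14.31 with vehicle and 13.99 and 13.98 with WIN 18,446. Cd34 alone gave 46.4% to 54.5% of that sum, and the other 29 genes gave 13.13 and 13.41 against 12.96 and 12.84. Such sums follow the brightest probe sets of a list and are compared only between arrays. For 13 pericyte and smooth muscle genes the sum was 15.07 and 15.21 against 14.97 and 14.93. Of 12 tested only desmin (Des) was called, at -1.47 (adjusted p = 0.0349, limma), against 3.46% of all genes called lower. At an unadjusted p under 0.05 in the lower direction were 4 of the 12 (limma), against 14.1% of all genes. For 15 macrophage and white cell genes the sums were 8.98 and 9.61 against 8.64 and 9.48, and 0 of 3 tested were called in limma, with 0 at an unadjusted p under 0.05 in the lower direction; C1qa, C1qc, Aif1, Cd163, Cx3cr1 and Itgam were at background on all 4 arrays. For the 6 of 8 platelet genes with a probe set the sums were 7.67 and 8.13 against 7.49 and 7.93, with Itga2b, Gp9, Gp6 and Ppbp at background. For 5 of 9 red cell genes they were 4.76 and 4.56 against 4.52 and 4.77, with Alas2, Hba-a1 and Epor at background. Most of the platelet and red cell genes were thus at background on every array.

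For the testis cells themselves, the summed log2 level of 10 Sertoli genes was 16.56 and 16.53 with vehicle and 16.36 and 16.37 with WIN 18,446, with 4 of 10 called lower (Sox9, Cldn11, Wt1 and Dhh), against 3.46% of all genes. The other Sertoli genes were not called, and 4 of them, Amh (1.25, adjusted p = 0.0575, limma), Inha (0.16), Inhbb (0.15) and Kitl (0.12), read above both vehicle arrays on both treated arrays. The sums of 5 of 7 Leydig genes were 15.45 and 15.20 against 15.13 and 14.94, with 0 of 5 called in limma. At an unadjusted p under 0.05 in the lower direction were 2 of the 5 (limma), against 14.1% of all genes. The germ cell genes, 7 of 8, gave 14.71 and 14.62 against 14.52 and 14.56. Of 6 tested only Sall4 was called lower, against 3.46% of all genes. The median log2 difference was -0.16 over the Sertoli, -0.31 over the Leydig and 0.02 over the germ cell genes. It was -0.20 over the pericyte and smooth muscle genes, beside -0.78 over the 30 endothelial genes.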

How the data were processed

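RNA of 4 samples of cultured 2 dpp testes was amplified, labelled and read on 1 array each. The deposited table holds log2 levels that the authors had normalized; RMA and GCRMA stand in the submitters' processing notes, with no word on which made it, and the log2 scale was read from the values. The 64 control probe sets were left out, and the 20895 of 45037 probe sets with a mean of at least 5 were fitted with limma 3.58.1 in R 4.3.3 (lmFit, eBayes with a variance trend; 2 residual and 3.19 prior degrees of freedom), two-sided, with Benjamini-Hochberg adjustment over all of them. Gene names come from GEO's array annotation; 2 probe sets that name Ramp2 together with another gene were not used. An exact permutation test of 2 arrays against 2 cannot go below 0.333, so none is given. Alternatives were other filters, normalizations, variance models, probe set rules and thresholds, the replicate number as a block, and each array left out. Where an array was left out, the lone array of its group was assumed to vary like the other group. Every one of the 30 genes is given; of the other pathway genes, 8 that were always to be given and each that was called are named. The members and lists were chosen with earlier results of these data known. On simulated data with the variances of this fit, limma recovered 69.8% of changes of 1 log2 unit and 97.7% of changes of 2 among 20895 probe sets. The rate for the endothelial genes alone is not given. Their vehicle arrays lay further apart, with a median gap in size of 0.31 over the 18 tested and 0.10 over all genes. Promoter windows come from RefSeq (GRCm38.p6).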

Additional observations from a re-analysis of the deposited data

How the results depend on the processing

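The median difference kept its sign under every alternative run, and was -0.89 to -0.65 with 1 array left out in turn. The count of endothelial genes called lower in limma, 1 as reported, was 0 with no level filter (11 at an unadjusted p under 0.05), 0 with no variance trend (10 unadjusted) and 0 whichever array was left out (6 to 10 unadjusted). It was 2 with a mean of at least 7, 2 when quantile normalized again and 2 with robust moderation. The shares of all genes called lower in those runs were 4.36%, 4.04% and 3.88%. With 2 of the 4 arrays at 5 or above the count was 3, against 3.88% of all genes. Of these, 1 was Gpihbp1, which passes that filter through its vehicle arrays alone. The count was 5 with array medians set equal (4.27% of all genes), 6 with a gene's probe sets averaged (5.85%) and 7 at an adjusted p under 0.10 (6.86%). None was called higher in any of these. Over all probe sets limma called 1083, against 3 with no level filter, 372 with no variance trend and 2216 at an adjusted p under 0.10, and 0 to 1398 with 1 array left out: without vehicle array 1 it called 0, with 2455 under an unadjusted p of 0.05, without vehicle array 2 it also called 0, with 2820, and leaving out treated array 1 or 2 gave 664 or 1398. The cause was not tested. With the replicate number as a block, 1467 probe sets and the same endothelial gene, Robo4, were called (adjusted p = 0.0457, limma). The deviations of same-numbered arrays correlated at 0.01 across probe sets. The labels do not say whether same-numbered samples were paired, and 1 correlation over 4 arrays cannot tell. Of 264 values of single endothelial genes under the alternatives, 239 kept their side of the threshold, 19 passed it, 6 (all Robo4) lost it, and 6 changed sign, none of them called. Levels near the background of 2.22 limit Kdr, Erg, Tal1, Plvap, Lyve1 and the treated readings of Tie1, Vwf and Gpihbp1.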
